A study of Mus musculus with 58 samples.

Results

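Livers of young male mice given Myc together with ruxolitinib were compared with livers of young male mice given a control vector and vehicle, across all genes of the deposited count table. The members were chosen by their group labels: 10 libraries of young Myc ruxolitinib livers and 6 libraries of young mApple vehicle livers, 16 of the 58 libraries in the table. All 16 mice were C57BL6/J males of 4 months and were sequenced in the second batch. Every mouse had received an AAV8 vector that carries the hepatocyte promoter TBG, with Myc in 1 group and the red fluorescent protein mApple in the other. The Myc mice were gavaged with ruxolitinib at 45 mg/kg, 2 times a day with a weekend break of 2 days, for 30 days, and the mApple mice received vehicle. Vector and drug therefore changed together, and their shares in any difference between these groups cannot be told apart. The 58 libraries include no young Myc vehicle livers and no young mApple ruxolitinib livers. Beside the young values stand 3 comparisons of old livers (24 months in the second batch, 25 months in the first): Myc ruxolitinib against mApple vehicle, Myc vehicle against mApple vehicle, and mApple ruxolitinib against mApple vehicle.

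Myc is a transcription factor that binds the E-box CACGTG with its partner Max and is known for raising genes of ribosome assembly, nucleotide synthesis and the cell cycle. Ruxolitinib inhibits the kinases JAK1 and JAK2, which sit on cytokine and hormone receptors and phosphorylate STAT proteins. In the liver these receptors carry the signals of interferons, of the interleukin 6 family, which raises acute phase proteins, and of growth hormone, which acts through STAT5 on Igf1, Socs2, Cish and the genes that differ between male and female liver.

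Counts assigned to exons came to 11.19 to 13.15 M in the Myc ruxolitinib libraries and 13.04 to 18.52 M in the control libraries, so the control libraries were the deeper ones (exact permutation test of the means, two-sided, p = 0.000624). The share of each library's mapped total that fell in exons was 76.5 to 80.6% in the Myc ruxolitinib group and 81.3 to 82.4% in 5 controls, while control library 1134 stood at 63.8%. Library 1134 also held the highest share of Alb in its counts (14.7%, against 7.85% in the lowest control and at most 7.69% in the Myc ruxolitinib group). Control library 1129 stood apart in another way: it held 19.9 CPM (counts scaled to a library of 1000000) of the proliferation marker Mki67, against 0.804 to 3.21 CPM in the other controls, and 21.0 CPM of the leukocyte gene Ptprc, against 4.90 to 11.7 CPM in the other 15 young libraries. Where leaving out a single library ended a named gene's call, this is stated beside it. Genes marked below as named after their values were seen were not checked in this way. The part of exon share and depth in the results was not tested. Nothing but the labels shows that the libraries come from different animals, so p-values measure the spread between libraries as labelled.

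Of 12808 genes tested with edgeR's quasi-likelihood test, 3524 passed an adjusted p of 0.05 (Benjamini-Hochberg). In the Myc ruxolitinib livers 1725 genes rose (13.5% of those tested) and 1799 fell (14%). The counts of list members given below stand against these shares. Changes of at least 1 on the log2 scale were the smaller part, with 211 genes higher and 182 lower. In 628 genes (4.9%) every Myc ruxolitinib library lay above every control, and in 381 genes (2.97%) every one lay below. Without 1129 the calls numbered 3789, without 1134 they numbered 3783, and without both 4048, of which 2984 were among the 3523 original calls that could still be tested. The near balance of directions depended on scaling: with TMM scaling, used throughout, the median log2 difference over all genes was -0.01, and with plain library totals it was 0.16, with 3975 genes higher and 757 lower. In whole liver RNA, fewer cells of a type and less RNA per cell cannot be told apart.

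Myc RNA was higher in every Myc ruxolitinib liver than in any control. It ranged 35.4 to 59.8 CPM (median 49.6) in the Myc ruxolitinib group and 4.10 to 22.0 CPM (median 8.12) in the controls, with no overlap. The difference was 2.28 ± 0.28 (log2 ± standard error, adjusted p = 6.98e-06). As a check of the labels, the mean log2(CPM + 1) was 5.65 ± 0.209 (SD, n = 10) against 3.26 ± 0.858 (SD, n = 6), exact permutation p = 0.000125. Among controls the highest Myc levels were in libraries 1132 and 1131, at 22.0 and 13.7 CPM. The gene lies on chromosome 15 from 61985341 to 61990361 (mm10), and counts there do not separate the vector's transcript from the mouse's own. Of the 13 genes of the Myc network, 3 rose and 1 fell, and 6 rose without 1134, 7 in limma voom and 9 under library totals. Those that rose were Myc, the antagonist Mnt (0.36 ± 0.09) and the antagonist Mxd4 (0.72 ± 0.10), and Mycn, a relative of Myc, fell by 1.15. Max itself gave 0.23 ± 0.12 and did not pass (adjusted p = 0.151).

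**Figure D1:**
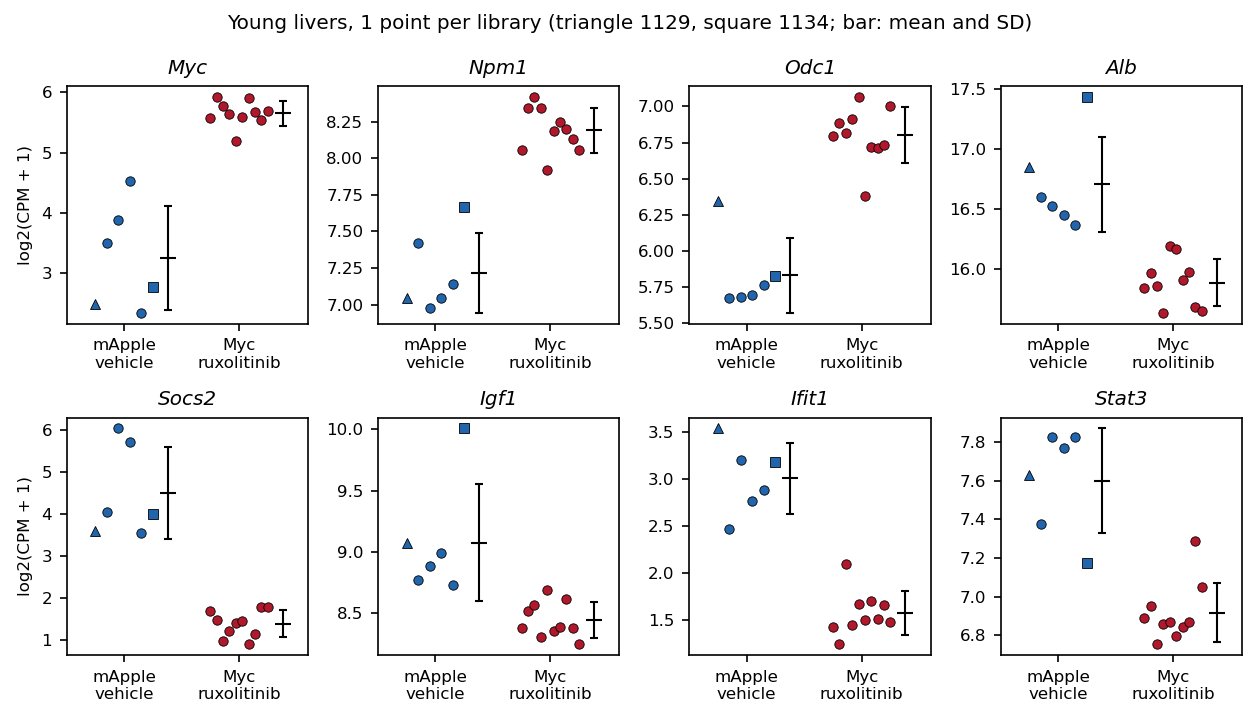
Levels of 8 genes in each young library as log2(CPM + 1), with the group mean and SD as bars, for 10 Myc ruxolitinib and 6 mApple vehicle livers; the triangle marks library 1129 and the square library 1134. Myc, Npm1 and Odc1 lie higher in every Myc ruxolitinib library, Alb, Socs2, Igf1 and Ifit1 lie lower in every one, and the Stat3 values overlap.

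The promoters below show where the DNA words of Myc and of the STAT and interferon factors stand in some genes that moved. Each printed promoter holds such a word, and Atic and Irgm2 were picked for holding one. Ifit1 and Socs3 were printed out of a wider set in which several promoters, those of Ncl, Odc1 and Cish among them, hold none. The printed promoters therefore do not show how often the words occur. Each is the 250 bases before the transcription start in RefSeq (GRCm38.p6), 5′ to 3′ on the gene's strand, with the searched words in capitals: the E-box CACGTG, the STAT word TTCNNNGAA and the interferon word GAAANNGAAA, each searched on both strands, so that a word on the other strand stands as its complement. The STAT and interferon words can share bases, which they do not in these promoters. Atic, an enzyme of purine synthesis that rose, carries an E-box 7 bases before its start (chr1:71556906-71557155, + strand). Ifit1, an interferon-induced RNA-binding protein that fell, carries the interferon word 104 and 85 bases before its start (chr19:34640639-34640888, + strand). Irgm2, an interferon-gamma-induced GTPase that fell, has a STAT word at 75 and an interferon word at 64 bases (chr11:58214727-58214976, + strand). Socs3, a feedback inhibitor of JAK kinases that fell, has a STAT word at 154 bases (chr11:117969367-117969616, - strand).
Atic: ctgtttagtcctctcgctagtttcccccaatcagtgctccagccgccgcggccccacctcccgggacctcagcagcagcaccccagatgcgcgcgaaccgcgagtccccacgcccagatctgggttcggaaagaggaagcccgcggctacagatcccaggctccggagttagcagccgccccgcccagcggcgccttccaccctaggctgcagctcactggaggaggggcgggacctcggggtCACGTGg
Ifit1: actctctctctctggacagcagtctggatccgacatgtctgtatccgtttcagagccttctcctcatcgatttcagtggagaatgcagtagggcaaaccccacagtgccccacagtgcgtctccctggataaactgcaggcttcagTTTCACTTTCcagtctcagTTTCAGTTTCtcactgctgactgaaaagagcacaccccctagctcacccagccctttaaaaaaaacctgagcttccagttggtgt
Irgm2: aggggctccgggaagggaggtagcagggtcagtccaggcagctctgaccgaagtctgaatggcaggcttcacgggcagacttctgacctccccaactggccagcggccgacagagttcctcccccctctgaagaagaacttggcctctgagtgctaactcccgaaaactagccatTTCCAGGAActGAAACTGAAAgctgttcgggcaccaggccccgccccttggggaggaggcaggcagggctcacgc
Socs3: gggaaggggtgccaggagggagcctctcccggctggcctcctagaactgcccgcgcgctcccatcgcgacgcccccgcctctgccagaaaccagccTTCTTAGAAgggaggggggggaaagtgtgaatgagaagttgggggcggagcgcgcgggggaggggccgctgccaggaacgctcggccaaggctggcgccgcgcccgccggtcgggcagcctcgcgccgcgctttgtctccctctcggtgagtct

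Promoters were found for 9889 of the 12808 tested genes. The E-box stood in 8.48% of all of them, in 11.3% of those of genes that rose and in 7.54% of those of genes that fell. The interferon word stood in 2.81% of all, in 2.46% of genes that rose and in 5.34% of genes that fell, and the STAT word in 6.14%, 6.71% and 7.54%. Among the lists described further on, 12 of 34 type I interferon promoters (35.3%) held the interferon word, and 10 of 17 interferon gamma target promoters (58.8%) did, with the STAT word in 9 of these 17 (52.9%) and in 11.8% of the type I promoters. Lists that rose held these words too, the interferon word in 4 of 26 cytosolic ribosomal protein promoters (15.4%) and the STAT word in 5 of 42 ribosome biogenesis promoters (11.9%). The E-box stood in 4 of 21 nucleotide synthesis promoters (19%) and in 2 of 42 ribosome biogenesis promoters (4.76%). It also stood in 2 of 7 promoters (28.6%) of the feedback and direct STAT5 target list, in which 5 genes fell and none rose. Ncl, Odc1, Nop56 and Cad, which rose, hold none of the words in this window, nor do Cish, Irf7 and Oasl2, which fell. Onecut1, which fell, holds an E-box 232 bases before its start. These matches describe letters and are not measured binding.

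Genes that build ribosomes rose together in the Myc ruxolitinib livers. Of 48 ribosome biogenesis genes tested, 41 rose and none fell, against 13.5% and 14% of all genes, and their median log2 difference was 0.63. In 32 of them no Myc ruxolitinib library overlapped a control. Ncl, nucleolin, which works in ribosomal RNA processing, ranged 308 to 415 CPM (median 337) against 156 to 193 CPM (median 184) in controls, a difference of 0.92 ± 0.07 (adjusted p = 4.33e-08, chromosome 1, 86344719 to 86359455). Npm1, the nucleolar chaperone nucleophosmin, ranged 241 to 341 CPM (median 291) against 125 to 203 CPM (median 136) (0.96 ± 0.10, adjusted p = 1.43e-06, chromosome 11, 33152498 to 33163206). In both genes the groups did not overlap, and the highest control for Npm1 was 1134. Nop56, a core protein of the particles that methylate ribosomal RNA, ranged 35.4 to 47.5 CPM (median 40.0) against 13.9 to 21.2 CPM (median 16.5) (1.24 ± 0.10). Ppan (1.27 ± 0.10), Dkc1, the pseudouridine synthase dyskerin (1.26 ± 0.10), Polr1b, a subunit of RNA polymerase I (1.0 ± 0.07), and the RNA helicase Ddx21 (0.83 ± 0.07) rose as well. The mean level of the list was 4.86 to 5.12 as log2(CPM + 1) in the Myc ruxolitinib livers and 4.22 to 4.46 in the controls.

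All 35 cytosolic ribosomal protein genes tested rose, with a median of 0.85, and 32 did not overlap between groups. Rpl10a (1.11 ± 0.07), Rpl6 (0.94 ± 0.09), Rps7 (0.91 ± 0.08), Rps4x (0.87 ± 0.08) and Rpl5 (0.78 ± 0.07) were among those with the smallest p. These genes have many near-identical processed copies in the genome, and how the counting divided such reads is uncertain. Zfas1, a noncoding RNA that hosts small nucleolar RNAs, was among the 10 largest increases, at 18.6 to 30.1 CPM (median 24.4) against 3.12 to 7.85 CPM (median 5.97) (2.06 ± 0.16). Mitochondrial ribosomal proteins moved less, with 16 of 34 rising, none falling and a median of 0.23. Of 15 chaperonin and heat shock genes 13 rose and none fell (median 0.49), with the mitochondrial chaperonin Hspd1 at 740 to 873 CPM (median 777) against 377 to 563 CPM (median 473) (0.77 ± 0.08) and the chaperonin subunit Cct3 at 0.69 ± 0.10.

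**Figure D2:**
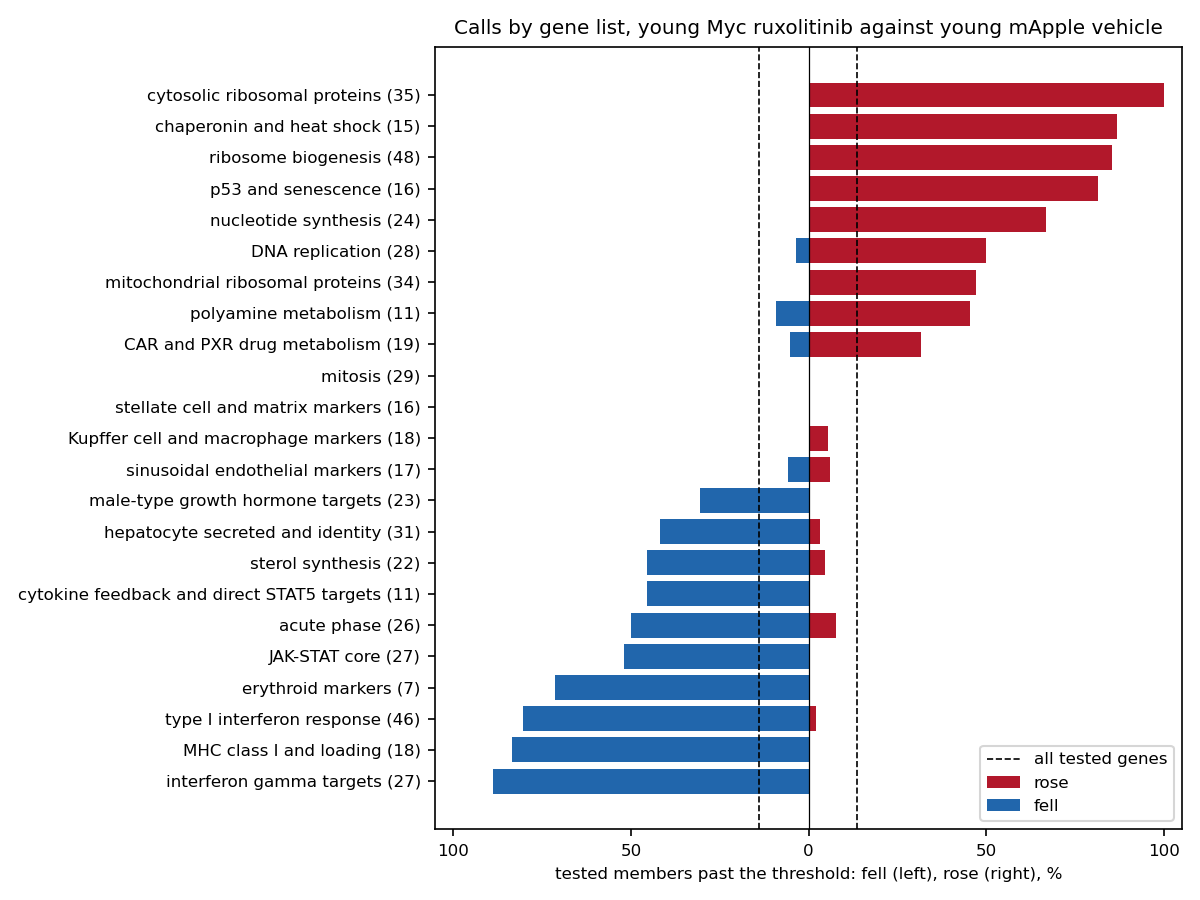
Percent of tested members of 23 gene lists that rose or fell in young Myc ruxolitinib livers against young mApple vehicle livers (edgeR, adjusted p below 0.05); dashed lines mark all tested genes, 13.5% risen and 14% fallen. The ribosome and nucleotide lists hold risen genes and no fallen ones, and the interferon and MHC class I lists hold almost only fallen ones.

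Many enzymes of nucleotide and polyamine synthesis rose. Of 24 nucleotide synthesis genes 16 rose and none fell (median 0.62), and 14 did not overlap. Ctps, which makes CTP, ranged 8.78 to 14.0 CPM (median 11.8) against 2.57 to 4.88 CPM (median 3.99) (1.58 ± 0.13, adjusted p = 9.56e-08). Cad, which catalyses the first steps of pyrimidine synthesis, ranged 32.2 to 51.6 CPM (median 40.5) against 6.96 to 18.8 CPM (median 16.6) (1.42 ± 0.17, adjusted p = 4.59e-06). Atic, whose promoter with its E-box is printed above, ranged 56.2 to 75.3 CPM (median 65.9) against 24.7 to 39.0 CPM (median 32.6) (1.06 ± 0.10, chromosome 1, 71557156 to 71579403). For these 3 enzymes every Myc ruxolitinib liver was above every control. Impdh2, which commits purines to guanine nucleotides (1.02 ± 0.07), the dCTP-hydrolysing enzyme Dctpp1 (1.01 ± 0.08) and Umps, which makes UMP (0.85 ± 0.07), rose too. Of 15 genes of serine and folate one-carbon metabolism 5 rose and none fell (median 0.22), namely Psat1 (1.35 ± 0.24) of serine synthesis, the mitochondrial folate enzyme Mthfd2 (0.79 ± 0.24), Mat2a (0.47 ± 0.11), Gldc (0.46 ± 0.09) and Ahcy (0.25 ± 0.08). The call of Mthfd2 was lost without control 1132 (0.64, adjusted p = 0.0519).

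Polyamines are small cations that growing cells need, and 5 of 11 genes of their metabolism rose while 1 fell (median 0.22). Odc1, ornithine decarboxylase, the rate-limiting enzyme, ranged 82.4 to 133 CPM (median 111) against 50.1 to 80.3 CPM (median 52.1) (0.97 ± 0.11, adjusted p = 3.04e-06, chromosome 12, 17544873 to 17551502). Its lowest Myc ruxolitinib liver, 1124 at 82.4 CPM, lay just above its highest control, 1129 at 80.3 CPM. Srm, spermidine synthase, ranged 37.9 to 50.5 CPM (median 45.4) against 11.0 to 17.2 CPM (median 14.5) (1.62 ± 0.09). Spermine synthase Sms (0.78 ± 0.13), Mtap, which recycles the by-product of both synthases (0.68 ± 0.09), and Amd1 (0.29 ± 0.09) also rose, although the call of Amd1 was lost without control 1129 or 1131 (adjusted p = 0.0524 and 0.0554). Sat1, which breaks polyamines down, fell by 0.34.

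The calls of cell cycle genes depended on 1 control library. Of 28 DNA replication genes 14 rose (median 0.58), and without 1129 21 rose. The 1 that fell, Mcm10, is named after its values were seen and differed by -0.33 ± 0.10. Mcm6, a subunit of the replicative helicase, ranged 9.42 to 26.2 CPM (median 14.7) against 3.15 to 15.3 CPM (median 3.91), the highest control being 1129 and the ranges overlapping. Its difference was 1.56 ± 0.33 with all libraries and 2.12 ± 0.25 without 1129. Mcm2 (1.26 ± 0.30, and 1.86 without 1129), the DNA polymerase subunits Pole (1.16 ± 0.30) and Pold1 (0.62 ± 0.16), the licensing factor Cdt1 (0.63 ± 0.16) and Mcm7 (0.48 ± 0.11) rose. None of 29 mitosis genes passed in edgeR or DESeq2, at a median of 0.87, and 3 were higher at an unadjusted p of 0.05 in each. With limma voom, which gives libraries that stand apart less weight, 25 of them rose. Without 1129 26 rose in edgeR, at a median of 2.34, and 26 without 1129 and 1134. Cdk1, the kinase that drives entry into mitosis, ranged 1.31 to 7.95 CPM (median 4.51) against 0.366 to 7.50 CPM (median 0.780). Without library 1129, whose 7.50 CPM was the highest of the controls, Cdk1 rose by 2.56 ± 0.41 (adjusted p = 0.000137), against 1.25 ± 0.54 (adjusted p = 0.0941) with all 16 libraries. Mki67 ranged 3.17 to 14.3 CPM (median 8.36) against 0.804 to 19.9 CPM (median 1.48), a difference of 0.87 ± 0.59 (adjusted p = 0.292) that became 2.39 ± 0.43 (adjusted p = 0.000451) without 1129. Library 1129 also held the most Ptprc RNA and the highest Kupffer cell and macrophage marker level of the controls, 4.33. What set 1129 apart was not tested.

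**Figure D3:**
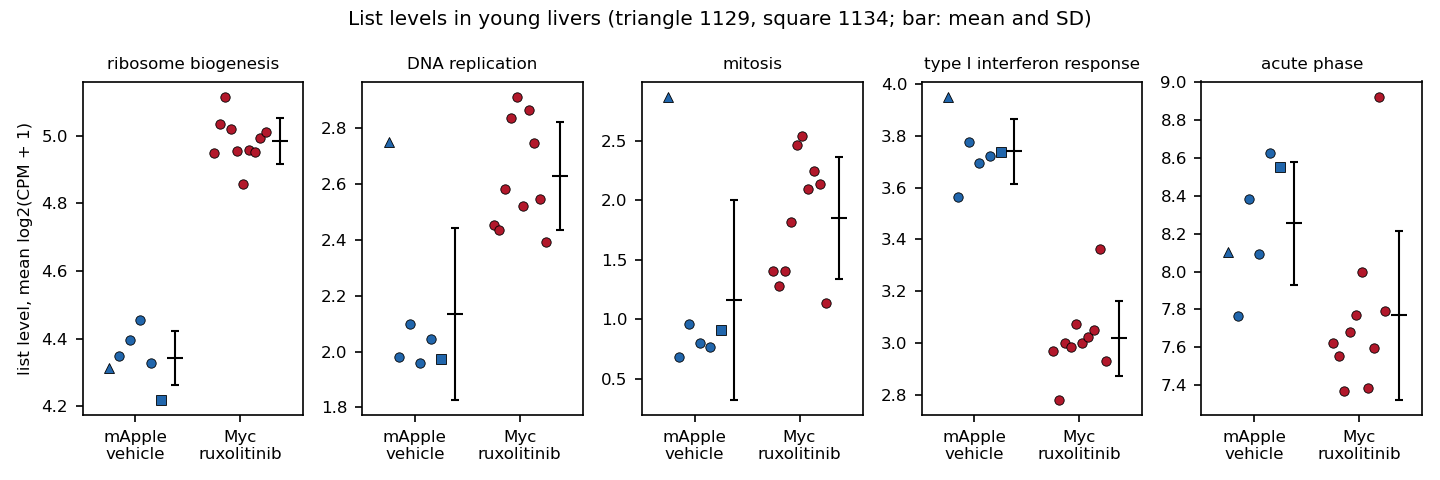
Mean log2(CPM + 1) over the members of 5 gene lists in each young library, for 10 Myc ruxolitinib and 6 mApple vehicle livers, with library 1129 as a triangle and 1134 as a square. Ribosome biogenesis and type I interferon levels do not overlap between groups, and 1129 alone lifts the control range of DNA replication (to 2.75) and mitosis (to 2.87) into that of the Myc ruxolitinib livers.

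Most genes of the p53 and senescence list rose, 13 of 16, with none falling and a median of 0.63. The protein p53 is a transcription factor activated by DNA damage and other stress. Its own gene Trp53, named after its values were seen, is among the 13 (0.46 ± 0.10). Eda2r, a receptor of the tumour necrosis factor family, ranged 4.98 to 11.0 CPM (median 6.66) against 0.309 to 1.30 CPM (median 0.629) (3.35 ± 0.25, adjusted p = 2.56e-08), with no overlap. The death receptor gene Tnfrsf10b (2.15 ± 0.26), Phlda3, an inhibitor of Akt (1.6 ± 0.26), the RNA-binding protein Zmat3 (1.10 ± 0.09) and the nuclease Aen (0.91 ± 0.13) rose. Cdkn1a, which encodes the cell cycle inhibitor p21 and is the best known target, ranged 21.6 to 122 CPM (median 47.7) against 20.9 to 58.7 CPM (median 45.0) and did not pass (0.35 ± 0.27, adjusted p = 0.372). Nor did Mdm2 (0.11 ± 0.11, adjusted p = 0.507) and Btg2 (0.31 ± 0.27, adjusted p = 0.423), both named after their values were seen. Under library totals the integrated stress response list had 5 genes higher and 1 lower. With TMM scaling 2 of its 16 genes rose and 3 fell, near the 13.5% and 14% of all genes. Ddit4 (1.46 ± 0.20) and Sesn2 (0.87 ± 0.14), both inhibitors of mTORC1 signalling, rose, and Sesn2 is counted in the p53 list too. Chac1 (-1.16 ± 0.33), Cebpb (-0.39 ± 0.14) and the factor Atf4 (-0.32 ± 0.10) fell. The call of Cebpb was lost in 11 of 16 omissions of single libraries (adjusted p between 0.052 and 0.108), that of Atf4 without control 1131 (-0.25, adjusted p = 0.0609) and that of Chac1 without control 1132 (-0.84, adjusted p = 0.0568).

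Socs2 and Cish, feedback inhibitors close to growth hormone receptor, JAK2 and STAT5 signalling, were among the 10 largest decreases of the comparison. Onecut1, a member of the hepatocyte identity list, was also among these 10. Socs2, the feedback inhibitor of the growth hormone receptor, ranged 0.872 to 2.47 CPM (median 1.69) against 10.8 to 64.5 CPM (median 15.2), without overlap (chromosome 10, 95411490 to 95416857). It fell by 4.08 ± 0.40 (adjusted p = 5.29e-07). The controls themselves were far apart, with 1131 and 1132 at 64.5 and 51.6 CPM and the other 4 at 10.8 to 15.4 CPM. Cish, another feedback inhibitor, ranged 0.463 to 7.70 CPM (median 1.80) against 1.63 to 64.8 CPM (median 27.0) and fell by 3.65 ± 0.60 (adjusted p = 0.000154, chromosome 9, 107296659 to 107302784). Its groups overlapped, since controls 1129 and 1133 held 1.63 and 2.87 CPM while 1131 and 1132 held 48.7 and 64.8 CPM. Onecut1, a liver transcription factor responsive to growth hormone, had its highest controls in the same 2 libraries, 51.5 and 50.6 CPM, and ranged 1.30 to 3.98 CPM (median 2.32) against 4.34 to 51.5 CPM (median 19.7) (-3.29 ± 0.46). Socs3, whose STAT word is printed above and which also answers interleukin 6, ranged 1.27 to 2.49 CPM (median 1.71) against 2.57 to 16.7 CPM (median 5.50) without overlap (-2.06 ± 0.30, adjusted p = 5.71e-05, chromosome 11, 117966087 to 117969366). Igf1, the growth factor that the liver secretes on growth hormone, ranged 302 to 411 CPM (median 333) against 422 to 1029 CPM (median 489), the highest control being 1134, and fell by 0.70 ± 0.14. Of the 11 tested feedback and direct STAT5 target genes 5 fell and none rose (median -0.23).

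Genes of male pattern driven by growth hormone pulses fell in 7 of 23 cases and rose in none (median -0.21). Hsd3b5, a male-specific steroid dehydrogenase, ranged 43.6 to 115 CPM (median 93.3) against 48.9 to 299 CPM (median 213) and fell by 1.18, with control 1129 at 48.9 CPM inside the lower range. The complement genes C6 (-1.10 ± 0.14), C8a (-0.77 ± 0.09) and C8b (-0.59 ± 0.10), with Nudt7 (-0.64 ± 0.13) and Serpina3k (-0.58 ± 0.12), fell too. Of 14 female-pattern genes tested 2 rose, Cyp2b9 and Cyp2a4 (0.83 ± 0.26), and 2 fell, Nipal1 and the steroid hydroxylase Cyp17a1 (-1.79 ± 0.50). Both counts are near the 13.5% and 14% of all genes. Without 1134 5 of the 14 rose, against 14.7% of all genes. The call of Cyp17a1 rested on control 1129, without which its difference was -0.81 ± 0.37 (adjusted p = 0.105), and that of Cyp2a4 was lost without control 1131, 1132 or 1133 (adjusted p between 0.0582 and 0.0585). Cyp2b9, a female-pattern cytochrome, rose by 4.98 ± 0.99 from a low level, 0.2999 to 8.22 CPM (median 1.73) against 0 to 0.550 CPM (median 0), and by 7.003 ± 1.32 without 1134. Nipal1, a magnesium transporter gene, fell by 2.83 and by 1.92 without control 1129, which held 36.8 CPM. In the IGF axis 4 of 14 genes fell and 1 rose, with Igf1, the binding protein genes Igfbp1 (-1.02 ± 0.29) and Igfbp4 (-0.45 ± 0.08) and the receptor Ghr (-0.34 ± 0.10) lower and the clearance receptor Igf2r higher (0.33 ± 0.06). Under library totals 3 genes of this axis fell and 3 rose. Cyp7b1, a bile acid and oxysterol enzyme higher in males, ranged 165 to 295 CPM (median 229) against 140 to 274 CPM (median 205) and did not pass (0.06 ± 0.15, adjusted p = 0.819).

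The JAK-STAT machinery itself was partly lower: 14 of 27 receptor, kinase and STAT genes fell and none rose (median -0.26), while under library totals 8 fell and 3 rose. Lifr, the receptor of leukaemia inhibitory factor, ranged 102 to 170 CPM (median 128) against 219 to 354 CPM (median 267) (-1.08 ± 0.12, adjusted p = 1.91e-06), without overlap. The receptors Osmr (-0.94 ± 0.15) and Il13ra1 (-1.06 ± 0.17) fell. Stat2, the partner in the type I interferon complex, ranged 38.1 to 60.2 CPM (median 48.6) against 77.2 to 90.6 CPM (median 80.9), again without overlap (-0.77 ± 0.08, adjusted p = 2.04e-06). Stat3, the factor of the interleukin 6 family, ranged 107 to 156 CPM (median 116) against 143 to 226 CPM (median 207) (-0.71 ± 0.10). Its ranges overlapped only through Myc ruxolitinib liver 1127, at 156 CPM, and control 1134, at 143 CPM.

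Interferon-stimulated genes fell as a group. Of 46 type I interferon response genes 37 fell, 1 rose and the median was -0.96, with 20 that did not overlap. The 1 that rose was Lgals3bp, a secreted glycoprotein named after its values were seen (0.33 ± 0.09). The count was 37 without 1129, 38 without 1134 and 37 without both. Ifit1 ranged 1.36 to 3.26 CPM (median 1.83) against 4.51 to 10.6 CPM (median 7.21) (-1.84 ± 0.18, adjusted p = 5.29e-07, chromosome 19, 34640889 to 34650009), and every Myc ruxolitinib liver lay below every control. Its neighbour Ifit3 ranged 2.94 to 4.82 CPM (median 3.496) against 6.80 to 15.7 CPM (median 9.74) (-1.51 ± 0.15, adjusted p = 5.95e-07). Irf9, which binds the interferon word together with Stat2, ranged 9.05 to 14.1 CPM (median 11.2) against 28.7 to 40.2 CPM (median 32.0) (-1.53 ± 0.09, adjusted p = 2.29e-09), and Rtp4 (-1.89 ± 0.17), Mx2 (-1.85 ± 0.15) and Rsad2, viperin (-1.55 ± 0.15), fell with it. Usp18, which removes the ubiquitin-like Isg15 from proteins, ranged 0.905 to 3.30 CPM (median 2.11) against 4.501 to 7.09 CPM (median 6.53) (-1.56 ± 0.18). Oasl2, of the oligoadenylate synthetase family, ranged 1.54 to 3.06 CPM (median 2.07) against 3.83 to 11.9 CPM (median 5.59) (-1.61 ± 0.20). Isg15 itself ranged 1.74 to 4.44 CPM (median 2.59) against 3.30 to 8.88 CPM (median 4.92) and fell by 1.04. Irf7, the factor that amplifies interferon output, ranged 8.45 to 23.3 CPM (median 13.1) against 20.9 to 36.2 CPM (median 26.7) and fell by 0.99. The groups overlapped for these last 2 genes. The list level was 2.78 to 3.36 in the Myc ruxolitinib livers, highest in 1127, and 3.57 to 3.95 in the controls, with no overlap.

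Interferon gamma targets fell in 24 of 27 cases and rose in none (median -0.99). Irgm2 ranged 13.2 to 21.6 CPM (median 15.6) against 46.5 to 99.0 CPM (median 63.8) without overlap (-1.97 ± 0.15, adjusted p = 2.63e-08, chromosome 11, 58214977 to 58222783). The guanylate-binding protein gene Gbp11, among the 10 largest decreases, ranged 0.377 to 1.68 CPM (median 1.10) against 2.35 to 18.1 CPM (median 5.84) (-2.90 ± 0.38), and Gbp7 (-1.76 ± 0.19), Gbp10 (-1.37 ± 0.21) and the GTPase Igtp (-1.23 ± 0.15) fell. These guanylate-binding genes belong to a cluster of close relatives, and how reads were divided among them is uncertain. MHC class I and peptide loading genes, which present antigen to T cells, fell in 15 of 18 cases (median -0.48), and in 7 under library totals. B2m, the light chain of class I, ranged 889 to 1112 CPM (median 1008) against 1382 to 4470 CPM (median 1551) and fell by 0.98 ± 0.19, control 1134 being the highest at 4470 CPM. H2-Q4 (-0.79 ± 0.12), H2-Q7 (-0.81 ± 0.11), H2-T23 (-0.76 ± 0.12), the immunoproteasome subunit Psmb8 (-0.98 ± 0.19) and the peptide transporter Tap1 (-0.66 ± 0.10) fell. Psmb8 and Tap1 are also counted among the interferon gamma targets. T and NK cells are a source of interferon gamma, and the summed level of 18 of their markers was 3.85 to 5.36 CPM against 6.73 to 13.0 CPM, without overlap. The list's level, the mean log2(CPM + 1) of these markers, was 0.237 to 0.349 against 0.323 to 0.744, with overlap. Cd4, the single marker with enough counts for a test, fell by 1.21, and 12 of the 18 stayed under 1 CPM in every young library, none of them at 0 in all. Their part in the interferon gamma result was not tested.

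Acute phase genes, which hepatocytes secrete in inflammation, fell in 13 of 26 cases and rose in 2 (median -0.58). Apcs, serum amyloid P, ranged 18.1 to 52.2 CPM (median 22.9) against 62.2 to 94.1 CPM (median 83.8) without overlap (-1.64 ± 0.19, adjusted p = 3.98e-06). Crp (-0.76 ± 0.13), Serpina3m (-0.76 ± 0.09), Itih3 (-0.68 ± 0.12), Itih4 (-0.64 ± 0.11) and ceruloplasmin Cp (-0.46 ± 0.08) fell. Saa1, a serum amyloid A gene, ranged 6.07 to 427 CPM (median 17.1) against 24.1 to 287 CPM (median 76.4) and did not pass (-0.77 ± 0.84, adjusted p = 0.531). Orm3, an orosomucoid gene with close relatives beside it, rose, at 0.975 to 19.3 CPM (median 6.77) against 0.652 to 2.20 CPM (median 1.67) (2.28 ± 0.43), as did Hamp2, a relative of the iron hormone hepcidin that is named after its values were seen (1.45 ± 0.33). The list level of liver 1127 was 8.92, the highest of all 16, and the remaining Myc ruxolitinib livers started at 7.37 against 7.77 to 8.63 in the controls, so the levels overlapped.

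Hepatocyte genes were lower in part. Alb, serum albumin, ranged 51040 to 74920 CPM (median 60410) against 84790 to 176800 CPM (median 96660), the highest control being 1134, and the groups did not overlap. It fell by 0.85 ± 0.14 (adjusted p = 0.000213, chromosome 5, 90460870 to 90476602) with all libraries and by 0.68 ± 0.11 without 1134. Of 31 genes of secreted proteins and hepatocyte identity 13 fell and 1 rose (median -0.23), and 6 fell under library totals. The 1 that rose was Tdo2, an enzyme of tryptophan breakdown named after its values were seen (0.27 ± 0.09). Onecut1, described above, had the lowest value of the list (-3.29). Apoa1 (-0.81 ± 0.10), fibrinogen Fgb (-0.58 ± 0.12), transthyretin Ttr (-0.39 ± 0.09) and the factor Foxa2 (-0.82 ± 0.18) were also among those that fell. Of 25 listed markers of fetal liver and tumours 16 were tested. Of these 16 none rose and 1 fell, Ldhb (-0.55 ± 0.18), a call lost without control 1129, 1131 or 1132 (adjusted p between 0.0608 and 0.0639). Without 1129 2 of 17 markers rose, against 14.5% of all genes, and none fell. Under library totals 3 of 16 rose and none fell. Afp ranged 0.803 to 2.03 CPM (median 1.57) against 1.11 to 3.02 CPM (median 1.77) (-0.22 ± 0.21, adjusted p = 0.468). In zonation, 7 of 16 pericentral genes fell and 1 rose (median -0.28), with glutamine synthetase Glul at -0.79 ± 0.19, Oat at -0.78 ± 0.19 and the ammonium transporter Rhbg higher at 0.76 ± 0.20. Of 18 periportal genes Hsd17b6 (1.21 ± 0.20) and Aldh1b1 (1.25 ± 0.37, and 1.90 without 1129) rose and Cdh1 (-0.50 ± 0.14) and Pigr (-0.27 ± 0.07) fell. Under library totals 4 pericentral genes fell and 2 rose, and 3 periportal genes rose and none fell. Egfr, the receptor of epidermal growth factor, ranged 162 to 426 CPM (median 215) against 341 to 596 CPM (median 408) and fell by 0.93, with liver 1127 at 426 CPM reaching into the control range.

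Drug metabolism genes held some of the largest increases. Cyp2b10, the classic target of the xenobiotic receptor CAR, ranged 96.8 to 368 CPM (median 199) against 10.1 to 48.7 CPM (median 14.7) without overlap (3.42 ± 0.34, adjusted p = 6.05e-07). Sult2a7, a bile acid and steroid sulfotransferase, ranged 9.15 to 45.8 CPM (median 26.8) against 0.652 to 2.47 CPM (median 0.946) and was the largest increase among genes with a mean log2 CPM of at least 1 (4.54 ± 0.39). Cyp3a59 ranged 150 to 216 CPM (median 183) against 19.96 to 49.1 CPM (median 30.4) (2.55 ± 0.16). These 3 genes have close relatives next to them, so how reads were divided among copies is uncertain. Of 19 CAR and PXR targets 6 rose and 1 fell (median 0.23), the others that rose including Cyp2c55 (1.16 ± 0.23), Cyp3a25 (0.71 ± 0.09), Cyp3a11 (0.67 ± 0.12) and the carboxylesterase Ces2a (0.32 ± 0.10), whose call was lost without control 1131 or 1133 (adjusted p between 0.0556 and 0.058). The 1 that fell was Cyp3a13, named after its values were seen (-0.25 ± 0.08). In the NRF2 antioxidant list Cbr3 (1.08 ± 0.34), Pgd (0.39 ± 0.13) and Ugdh (0.26 ± 0.08) rose and Gsr (-0.20 ± 0.06) fell, of 19 tested, against 13.5% and 14% of all genes. Each of these 4 calls was lost without some single library: Cbr3 without 1131 (adjusted p = 0.0579), Pgd without 1122, 1132 or 1134 (0.0513 to 0.0776), Ugdh without 1132 or 1133 (0.0603 to 0.066) and Gsr without 1130 or 1131 (0.0609 to 0.0672).

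Sterol synthesis genes fell more often than they rose. Of 22 sterol synthesis genes 10 fell (median -0.39), and 6 under library totals, with squalene epoxidase Sqle at -0.84 ± 0.14, Msmo1 at -0.77 ± 0.16, Nsdhl at -0.70 ± 0.13, Idi1 at -0.69 ± 0.14, Sc5d at -0.66 ± 0.16 and Cyp51 at -0.61 ± 0.12. Of 18 fatty acid synthesis genes 4 fell and none rose, against 14% and 13.5% of all genes, and under library totals 4 fell and 2 rose. Those that fell were Pnpla3 (-1.30 ± 0.34), Elovl5 (-0.73 ± 0.15), Scd1, the desaturase of saturated fatty acids (-0.72 ± 0.15), and Fads1 (-0.62 ± 0.11). Of 25 fatty acid oxidation genes under PPAR-alpha Acaa1b rose (0.62 ± 0.16) and Acadl fell (-0.23 ± 0.07), while under library totals 7 rose and none fell. In bile acid synthesis and transport 4 of 23 rose, the repressor Nr0b2 (0.72 ± 0.16), the exporter Abcc3 (0.60 ± 0.11), Akr1d1 (0.42 ± 0.10) and, named after its values were seen, the exporter Abcc2 (0.25 ± 0.09), and 7 fell, among them the importer Slco1a1 (-0.82 ± 0.20) and Klb, the co-receptor of the intestinal hormone FGF15 (-0.64 ± 0.11). Under library totals the bile acid list had 6 genes higher and 2 lower, so its direction depended on scaling. Cyp7a1, the rate-limiting enzyme of bile acid synthesis, ranged 37.3 to 181 CPM (median 71.2) against 64.6 to 224 CPM (median 171) and fell by 0.97 ± 0.31 (adjusted p = 0.0271), a call that was lost without control 1130 or control 1133 (adjusted p between 0.0584 and 0.0733).

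In glycolysis 4 of 22 genes rose and 3 fell (median 0.0074), near the 13.5% and 14% of all genes. The regulators Pfkfb3 (-1.44 ± 0.20) and Pfkfb1 (-0.88 ± 0.14) fell, as did Ldhb, and Pgam1 (0.52 ± 0.07), Eno1 (0.31 ± 0.10), Aldoa (0.29 ± 0.08) and Gpi1 (0.29 ± 0.08) rose, the call of Eno1 being lost without 1122, 1129 or 1132 (adjusted p between 0.0501 and 0.0516). In the circadian clock list of 17 genes 4 fell, and the repressor Cry1 was among those that rose (0.72 ± 0.14). Those that fell were Nr1d1 at -1.76 ± 0.33, Per1 at -1.0 ± 0.25, Npas2 at -0.81 ± 0.21 and Hlf at -0.47 ± 0.15, the last a call lost without control 1134 (-0.25, adjusted p = 0.0577). The hour of tissue collection was not given in the sources used here. Of 15 immediate early genes 3 fell and none rose, against 14% and 13.5% of all genes. Those that fell were the transcription factor genes Egr1 (-1.76 ± 0.32), Junb (-0.78 ± 0.22) and Ier2 (-0.45 ± 0.12), and the call of Junb was lost without control 1132 (adjusted p = 0.0581).

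Other large changes fell outside the lists. Smpdl3b, a lipid-modifying phosphodiesterase, ranged 3.30 to 8.35 CPM (median 5.59) against 0.183 to 0.495 CPM (median 0.420) (3.84 ± 0.26, adjusted p = 9.38e-09). Serpinb1a, an inhibitor of neutrophil proteases, ranged 9.34 to 44.9 CPM (median 21.4) against 1.71 to 9.27 CPM (median 3.65) and rose by 2.30 ± 0.37. The chloride channel protein Clic3 ranged 2.83 to 10.4 CPM (median 6.35) against 0.844 to 1.96 CPM (median 1.41) and rose by 2.28 ± 0.24. None of these 3 genes overlapped between groups. Downward, Srgap3, a regulator of the GTPase Rac, ranged 0.306 to 2.00 CPM (median 0.935) against 6.67 to 24.0 CPM (median 9.88) (-3.49 ± 0.30, adjusted p = 1.36e-07). The pseudogene Serpina4-ps1 ranged 13.4 to 33.4 CPM (median 21.9) against 28.0 to 268 CPM (median 144) (-2.65 ± 0.33), its 3 highest controls being 1130, 1131 and 1132 and its lowest 1129 at 28.0 CPM. Adgrf1, an adhesion receptor, ranged 1.16 to 5.85 CPM (median 1.66) against 8.20 to 20.7 CPM (median 11.3) without overlap (-2.60 ± 0.28). The ferritin receptor Scara5 ranged 0.770 to 13.3 CPM (median 2.76) against 2.38 to 41.2 CPM (median 15.1) with overlap (-2.44 ± 0.53). Mmd2 fell by 2.52, and by 1.40 without control 1129, which held 24.6 CPM of it against 2.38 to 3.67 CPM in the other controls.

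Few markers of Kupffer cells, sinusoidal endothelium, stellate cells or bile ducts passed, and few of neutrophils, lymphocytes, mast cells or pancreas could be tested. Of 18 Kupffer cell and macrophage markers 1 rose, Trem2 (0.96 ± 0.29), and none fell (median -0.04). The sinusoidal endothelial list had 1 of 17 higher, Lyve1 (0.55 ± 0.17), and 1 lower, Clec4g (-0.31 ± 0.10), and its level was 4.19 to 5.01 against 4.53 to 4.93. Both calls were lost on leaving out a control, Lyve1 without 1131 or 1132 (adjusted p between 0.0547 and 0.0594) and Clec4g without 1132 (adjusted p = 0.058). Under library totals 5 of these 17 endothelial markers rose and none fell. None of 16 stellate cell and matrix genes passed in edgeR or DESeq2, none had an unadjusted p under 0.05 in either, 3 rose in limma voom, and 4 rose in edgeR without 1129. Of 11 bile duct markers Ehf rose (0.85 ± 0.19) and Anxa4 fell (-0.21 ± 0.06). Neutrophil markers were mostly below detection for a test, with 2 of 12 tested, neither passing in edgeR, DESeq2 or limma voom or at an unadjusted p of 0.05, and 8 under 1 CPM in every young library. Of 4 tested B and plasma cell genes, Jchain (-1.03 ± 0.26) and Xbp1 (-0.70 ± 0.12), which hepatocytes also express, fell, and Derl3 (2.01 ± 0.43), a protein of the endoplasmic reticulum, rose. Among mast cell and pancreas markers 1 of 3 tested fell, Cela1 (-1.02 ± 0.14), and 3 of the 11 listed were at 0 in all 16 libraries. Erythroid genes fell in 5 of 7 cases (median -0.89), the haemoglobin genes Hba-a1 at -0.89 ± 0.27, Hba-a2 at -0.89 ± 0.27 and Hbb-bs at -0.78 ± 0.24 and the haem enzyme Alas2 at -0.96 ± 0.12 among them. The calls of Hba-a1, Hba-a2 and Hbb-bs were lost without control 1130 or control 1133 (adjusted p between 0.055 and 0.0925), and the share of blood left in each liver was not measured.

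In old livers of the same batch, 10 Myc ruxolitinib libraries were set against 4 mApple vehicle libraries, and 1296 of 13609 genes rose (9.52%) and 1058 fell (7.77%). No library is shared with the young comparison. Of the young genes that rose and were tested in both, 820 of 1725 (47.5%) rose in old livers too, which is 65.5% of the 1251 old ones, and 7 fell. Of the young genes that fell 404 of 1799 (22.5%) fell in old livers, or 39.9% of the 1013 old ones, and 5 rose. Myc differed by 2.01 in old livers, Npm1 by 0.87, Ncl by 0.69, Cyp2b10 by 3.21 and Socs2 by -3.14, and each of these passed at both ages. Ribosome biogenesis genes rose in 28 of 48 cases in old livers (median 0.49), and cytosolic ribosomal proteins in 33 of 35.

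The vector alone and the drug alone were analysed here only in old livers, over both batches. Old Myc vehicle livers (n = 11) differed from old mApple vehicle livers (n = 8) in 1459 genes that rose (10.8% of 13547) and 1085 that fell (8.01%). Old mApple ruxolitinib livers (n = 9) differed from the same controls in 1 gene that rose (0.00738% of 13554) and 52 that fell (0.384%). These old comparisons share control libraries with one another and none with the young one. Of the young genes that rose 900 of 1716 (52.4%) also rose with Myc alone, and of the 52 genes lower with ruxolitinib alone 42 (80.8%) fell in the young comparison, or 2.33% of the young ones. The type I interferon list shows the values side by side. In old livers 30 of its genes rose and none fell with Myc alone (median 0.80), 20 fell and none rose with ruxolitinib alone (median -0.83), and 1 rose and 2 fell with both (median -0.12), against 1 and 37 in young livers with both. Ifit1 differed by 1.06 (adjusted p = 0.0831) with Myc alone, by -2.50 (adjusted p = 0.0115) with ruxolitinib alone and by -0.86 (adjusted p = 0.205) with both in old livers, and by -1.84 ± 0.18 with both in young livers. For Socs2 these values were -0.54 (adjusted p = 0.324), -1.95 (adjusted p = 0.0777), -3.14 (adjusted p = 5.82e-06) and -4.08 ± 0.40, in the same order.

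**Figure D4:**
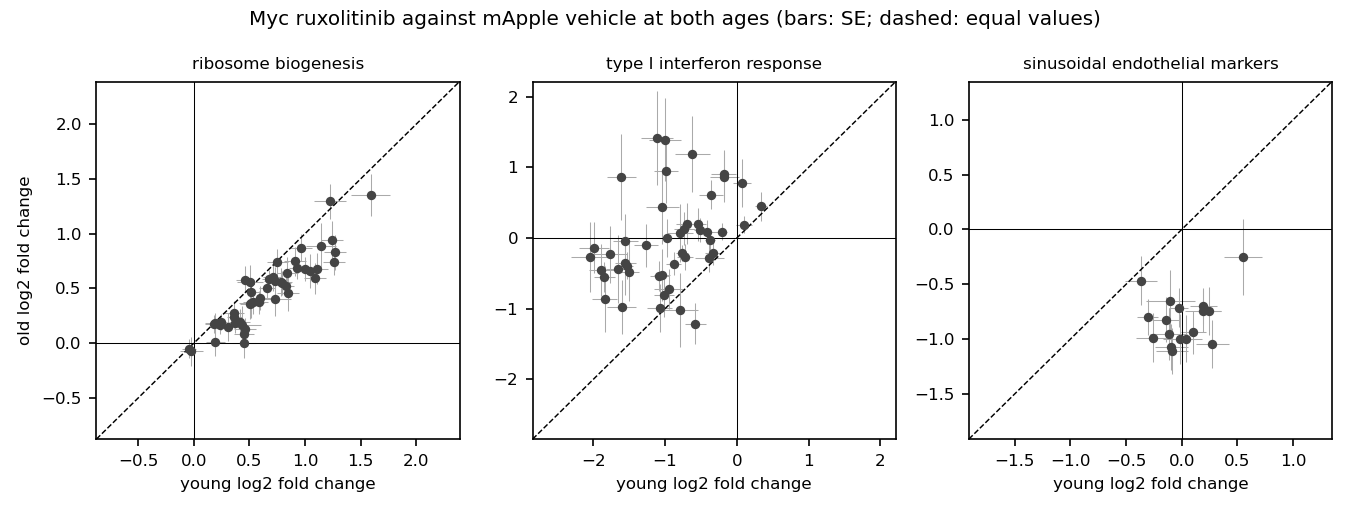
Log2 difference between Myc ruxolitinib and mApple vehicle livers in young mice (horizontal axis) and old mice (vertical axis) for members of the ribosome biogenesis, type I interferon and sinusoidal endothelial lists; bars are standard errors. Ribosome genes lie above 0 on both axes for the most part, most interferon genes lie below 0 in young livers around a median of -0.12 in old ones, and endothelial genes lie near 0 in young livers around a median of -0.82 in old ones.

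The difference between the young and the old response was tested directly as an interaction in edgeR. It passed for 39 of 13609 genes, 25 with a higher value in young livers (0.184%) and 14 with a lower one (0.103%), while 1914 passed at an unadjusted p of 0.05. Within the type I interferon list 1 gene passed, Irf9, and the median difference was -0.88. Irf9 fell in young livers by 1.53 and differed by -0.39 in old ones, a difference of -1.14 ± 0.26 (adjusted p = 0.0495). Its median was 11.2 against 32.0 CPM in young livers and 29.1 against 30.7 CPM in old livers, but the old Myc ruxolitinib livers were spread from 11.4 to 38 CPM. They were as widely spread in the level of the whole type I interferon list: livers 1154, 1149 and 1158 held 3.07, 3.27 and 3.36, within the young Myc ruxolitinib range of 2.78 to 3.36, and the other 7 held 3.79 to 4.90. Of the 4 old controls 3 held 3.75 to 3.83 and library 1136 held 5.06. Irf7 differed by 0.95 in old livers and by -0.99 ± 0.16 in young ones, and Oasl2 by 0.86 and -1.61 ± 0.20, but neither difference between ages passed (adjusted p = 0.13 and 0.186). The other genes with the most negative values were the class I relative H2-T10 (-0.97 ± 0.17, adjusted p = 0.0153), the fatty acid binding protein gene Fabp2 (-0.94 ± 0.16, adjusted p = 0.0145), Plscr2, of the scramblase family (-0.92 ± 0.18, adjusted p = 0.0218), and the glutathione transferase Gstp3 (-0.92 ± 0.21, adjusted p = 0.0498).

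At the other end stood the transcription factor Pitx3 (2.49 ± 0.57, adjusted p = 0.0491), the scaffold protein Akap12 (1.92 ± 0.42, adjusted p = 0.0424), the inositol kinase Itpkb (1.83 ± 0.40, adjusted p = 0.048), the glycosyltransferase B3gnt3 (1.73 ± 0.32, adjusted p = 0.0153) and Pcdh12, a protocadherin of endothelial cells (1.56 ± 0.33, adjusted p = 0.0359). Each of these 5 genes fell in old livers, and in young livers their differences were above 0, of which only that of Itpkb passed (0.65 ± 0.23, adjusted p = 0.0445), a call lost in 11 of 16 omissions of single libraries (adjusted p between 0.0541 and 0.102). Pitx3 had medians of 5.48 against 4.69 CPM in young livers and 0.230 against 1.36 CPM in old livers. Akap12 differed by 0.61 in young and -1.30 in old livers, and Pcdh12 by 0.51 and -1.05. The sinusoidal endothelial list had 14 of 17 genes lower in old livers (median -0.82), where Myc vehicle livers also had 14 lower, against 1 lower and 1 higher in young livers. Its level was 3.13 and 3.72 in old Myc ruxolitinib livers 1149 and 1154. In the other old Myc ruxolitinib livers it was 3.995 to 4.715, against 4.66 to 5.16 in old controls. Of the endothelial list only Kdr, a receptor of vascular endothelial growth factor that is named here after its values were seen, passed the test of the difference (1.33 ± 0.30, adjusted p = 0.0491). The old arm has 4 controls, and the count of 39 was 3 without old mApple vehicle library 1135, 13 without 1136 and 78 without 1138. Among the young controls the count was 7 without 1133, 9 without 1131 and 10 without 1130. Leaving out single Myc ruxolitinib livers gave 8 (1119, 1125 or 1128), 16 (1121), 17 (1151), 19 (1120), 20 (1122), 22 (1157), 23 (1126), 25 (1153 or 1158) and 64 (1154). The calls of H2-T10, B3gnt3 and Plscr2 were lost in 1, 2 and 3 of these 30 omissions, those of Pcdh12, Akap12 and Itpkb in 11, 16 and 17, those of Irf9 and Pitx3 in 23 each and that of Gstp3 in 24. Fabp2 kept its call in all 30.

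**Figure D5:**
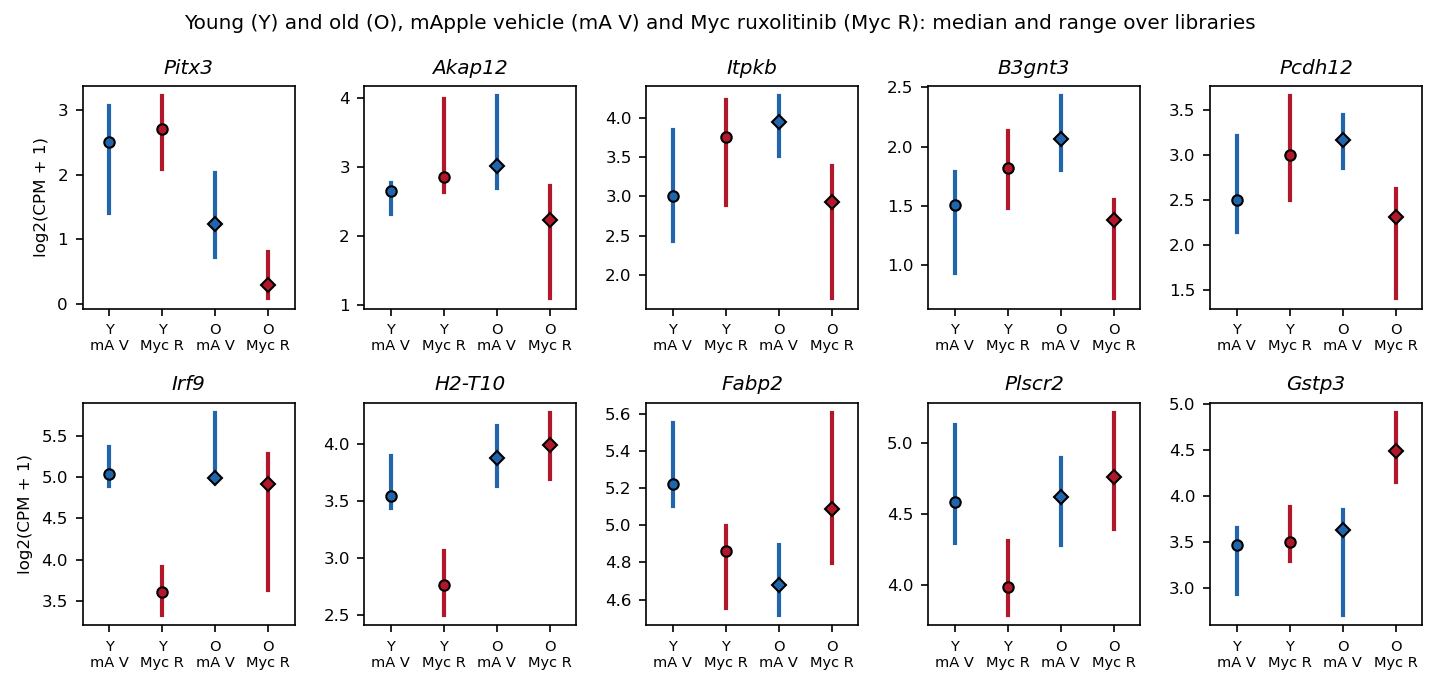
Median and range of log2(CPM + 1) in young and old Myc ruxolitinib and mApple vehicle livers for the 10 genes named for the difference between the young and old responses (10, 6, 10 and 4 libraries). The median of Irf9 is lowest in young Myc ruxolitinib livers, with the lowest old Myc ruxolitinib liver (11.4 CPM) inside their range, and the median of Pitx3 is lowest in old Myc ruxolitinib livers.

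Within the 10 Myc ruxolitinib livers, Myc level was compared with that of 8 genes, Npm1, Ncl, Odc1, Cdk1, Alb, Socs2, Ifit1 and Afp. Npm1 gave the highest value over all 10 (Pearson r = 0.774, permutation p = 0.00715, adjusted p = 0.0572 over the 8; Spearman rho = 0.709, permutation p = 0.0272, adjusted p = 0.151), and r was 0.509 without the 2 livers farthest from the median, where Socs2 gave -0.789 and Ifit1 0.523. Ncl gave r = 0.614 (permutation p = 0.0656, adjusted p = 0.263) and rho = 0.673 (permutation p = 0.0377, adjusted p = 0.151). For the other genes Pearson's r lay between -0.508 (Cdk1) and 0.0689 (Afp), and no relation passed the adjustment, and Myc spans a narrow range in this group, from 35.4 to 59.8 CPM.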

How the data were processed

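Poly(A) RNA of whole livers was sequenced as paired reads of 75 bases on an AVITI instrument after Watchmaker library preparation, per the labels' protocols. The authors mapped reads with STAR to mm10 (GRCm38) and counted them over exons with HOMER, per the submitters' processing notes and the file headers; versions and a strand setting were not given in the sources used here. The deposited values are estimated counts in steps of 0.5 (29.9% not whole) for 24537 genes and 58 libraries, and 393 genes are marked with more than 1 copy. They were rounded to whole numbers here.

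Genes passing filterByExpr (minimum count 10) were tested with edgeR 4.0.16 (TMM scaling, quasi-likelihood, Benjamini-Hochberg at 0.05) in R 4.3.3. The young test used 16 libraries, the young and old responses were set against each other in 30 second-batch libraries, and comparisons of old livers over both batches had batch as a term. Levels are CPM with TMM factors over those 30 libraries, log2 levels use CPM + 1, and a list's level is the mean of its members. Standard errors were derived from the fold change and the F statistic. DESeq2 1.42.0, limma 3.58.1 (voom with quality weights), other scalings and left-out libraries were alternatives. Tests were checked on simulated data. No pair of libraries held identical counts.

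Named genes are a fixed set of 25, the 10 largest changes in each direction with a mean log2 CPM of at least 1 (no predicted, Mup or receptor segment genes), up to 6 members of each of 43 lists with the smallest p, and the 5 largest age differences in each direction. In the lists 926 of 931 members matched. Some genes, Sesn2 for example, stand in more than a single list, so the list counts are not separate results throughout. The members and lists were chosen with earlier results of these data known. Some genes of these lists are not reported here by name.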

Additional observations from a re-analysis of the deposited data

Results flagged for a closer look

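In 174 sets of 6 or 10 library values, the highest or lowest library was tested for its distance from the rest (Dixon's test at 0.05), and 26 stood apart; chance gives about 1 in 20 sets. Controls 1129 and 1134 account for 8 each.

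Among the controls, 1129 was highest in the levels, as log2(CPM + 1), of DNA replication (2.75), mitosis (2.87), fetal and tumour markers (1.76), Kupffer cell and macrophage markers (4.33), Cdk1 (3.09), Mki67 (4.38), Mmd2 (4.68) and Odc1 (6.35). Control 1134 had the lowest share of reads in exons (63.8%) and stood apart in cytosolic ribosomal proteins (6.82), MHC class I and loading (5.86), fatty acid oxidation under PPAR-alpha (7.23), glycolysis (5.58), the circadian clock (4.86), Igf1 (10.01) and Sult2a7 (1.80). Control 1132 stood apart in fatty acid synthesis (7.97).

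Among the Myc ruxolitinib livers, 1123 stood apart in Myc (5.19, the lowest), Adgrf1 (2.78), Mmd2 (2.71) and Orm3 (0.982). Liver 1124 had the fewest exon counts (11.19 M) and the lowest Odc1 (6.38). Liver 1127 was highest in the type I interferon response (3.36) and in acute phase genes (8.92), and 1122 was lowest in Clic3 (1.94).

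The young and old responses differed, by the interaction test in edgeR, for Pitx3 (2.49), Akap12 (1.92), Itpkb (1.83), B3gnt3 (1.73), Pcdh12 (1.56), Gstp3 (-0.92), Plscr2 (-0.92), Fabp2 (-0.94), H2-T10 (-0.97) and Irf9 (-1.14), given as the young minus the old log2 difference. All of these calls but that of Fabp2 were lost on leaving out some single library, as given above.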

How the results depend on the processing

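For young Myc ruxolitinib against young mApple vehicle, the count of 3524 stayed within 1.5 times under DESeq2 (3777), limma voom (4693), no filter (3332), all 58 libraries with batch (2502), the fit of 30 libraries (3238) and omission of 1129 and 1134 (4048). A fold threshold of 1 on the log2 scale left 393 (211 higher, 182 lower). Library totals gave 3975 higher and 757 lower. Leaving out single libraries gave 3190 (without 1133) to 3789 (without 1129), with 1553 to 1898 higher and 1612 to 1928 lower.

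The difference of the young and old responses, at 39 genes, is less firm. It was 15 under library totals (11 higher, 4 lower), 202 under DESeq2 (116 and 86) and 597 under limma voom (376 and 221). Without a filter 13 were higher, of 27, and with all 58 libraries 25 were lower, of 43. Omission of single libraries gave 3 to 78, with 1 to 43 higher and 2 to 35 lower. The cause was not tested.

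Directions turned only for values that had not passed. Cyp7b1 was -0.10 under limma voom and -0.079 without 1129 and 1134, and -0.044 to 0.14 over single omissions. Afp was 0.020 without 1129 and 1134. The age difference of Myc was -0.055 without those libraries and -0.21 to 0.65 over single omissions, that of Cdk1 -1.95 to 0.027, and that of Mki67 0.75 without both and -1.53 to 0.41 over single omissions.

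Of the genes named for the young comparison, 58 lost their call with all 58 libraries, 31 in the fit of 30 libraries, 17 under library totals, 7 without 1129 and 1134 and 3 without a filter, all in the same direction as before.

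No paired analysis was possible because the groups share no replicate numbers. The tested genes are those with enough counts, so changes in rare RNAs, most lymphocyte markers among them, were not detectable at this depth. The controls number 6 in the young groups and 4 in the old second-batch group.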
